A study of Mus musculus with 8 samples.

Results

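The genes described here are 10 immediate early genes of the AP-1 and EGR type: the FOS subunit genes Fos, Fosb, Fosl1 and Fosl2, the JUN subunit genes Jun, Junb and Jund, the zinc finger gene Egr1, and the immediate early response genes Ier2 and Ier3. They were chosen by symbol from the 23420 genes of the count tables, and all 10 were found and passed the filter on low counts. RNA was from uterine stromal cells of mice labelled day 3, with 4 libraries under the label Erbb3f/f and 4 under Erbb3d/d. By mouse convention f stands for a floxed Erbb3 allele and d for a deleted one, but the labels name no Cre line or promoter, no age, no event from which day 3 is counted and no pooling of animals. Nothing in the labels says whether the libraries of a genotype came from separate mice, so p-values measure the spread between these libraries, which may be technical.

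Immediate early genes are transcribed soon after a cell is stimulated, without new protein synthesis, and their messenger RNAs are short-lived. FOS proteins pair with JUN proteins through leucine zippers to form the transcription factor AP-1, while JUN proteins can also pair with one another, and EGR1 binds GC-rich DNA by zinc fingers. Growth factor receptors, including those of the ERBB family, reach these genes through kinase cascades and serum response factor. In the uterus Fos, Jun and Egr1 are known as early targets of oestrogen, and in many tissues the same genes respond to dissection and cell isolation.

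Of the 10 genes, 4 FOS and JUN subunit genes are shown by the stretch of DNA just before their start site. The choice does not follow the likeness of their levels over the libraries, since Jund, not shown, had r of 0.93 with Fos and Junb 0.84. Sequences are from RefSeq on GRCm38.p6, whose table held 7 of the 10 genes, and each is written 5′ to 3′ on the strand of its gene. Capitals mark TGACG (the core of a cyclic AMP response element), TGACNTCA (the AP-1 and cyclic AMP response element type that includes the site known from the Jun promoter) and TATAAA. The Fos stretch is chr12:85473640-85473889, that of Fosb chr7:19310052-19310295, that of Jun chr4:95052223-95052472 and that of Junb chr8:84978749-84978998. The Fosb stretch leaves out its last bases, which lie in an exon of GENCODE vM21.
Fos: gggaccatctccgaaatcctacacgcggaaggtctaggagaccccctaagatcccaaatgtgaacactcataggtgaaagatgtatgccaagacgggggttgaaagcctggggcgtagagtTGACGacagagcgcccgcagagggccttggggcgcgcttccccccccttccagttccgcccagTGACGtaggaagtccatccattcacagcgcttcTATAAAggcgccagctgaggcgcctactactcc
Fosb: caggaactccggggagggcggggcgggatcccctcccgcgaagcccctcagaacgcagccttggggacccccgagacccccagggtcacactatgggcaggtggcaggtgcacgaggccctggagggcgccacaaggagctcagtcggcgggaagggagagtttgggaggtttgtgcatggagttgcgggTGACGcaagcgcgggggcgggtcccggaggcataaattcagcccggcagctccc
Jun: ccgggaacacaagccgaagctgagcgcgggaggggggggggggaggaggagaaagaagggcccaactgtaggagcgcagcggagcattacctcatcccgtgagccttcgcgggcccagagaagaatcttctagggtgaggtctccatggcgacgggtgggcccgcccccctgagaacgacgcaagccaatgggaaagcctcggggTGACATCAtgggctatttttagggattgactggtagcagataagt
Junb: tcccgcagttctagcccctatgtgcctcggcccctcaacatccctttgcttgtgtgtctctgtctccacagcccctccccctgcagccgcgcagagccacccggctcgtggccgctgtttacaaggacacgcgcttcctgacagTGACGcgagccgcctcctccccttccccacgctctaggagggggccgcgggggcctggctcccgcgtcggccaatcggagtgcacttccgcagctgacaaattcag

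Motifs were searched on both strands in the 250 bases before the start site. TGACG stood in Fos, Fosb and Junb, at 66 to 62 bases before the start in Fos with another copy at 129 to 125, at 60 to 56 in Fosb and at 106 to 102 in Junb. Of 32851 promoter windows of that length, 17.8% held it. Jun held TGACNTCA at 45 to 38 bases before the start, a motif found in 7.49% of the windows. TATAAA was found in Fos alone of the 7 genes, at 33 to 28 bases, and in 12.4% of all windows. The AP-1 motif TGANTCA (6.75% of windows) and the CArG box, the site of serum response factor (1.47%), had no match in the 7 windows, of which that of Jund lies upstream of its GENCODE start. Egr1, Fosl1 and Ier2 had no window, and bases further upstream than 250 were not searched. The lack of a match therefore does not show that these genes lack such sites. GCGNGGGCG, the EGR type of site, was found in Fosb and Fosl2 and in 4.70% of windows. TGACG and TGACNTCA can overlap, and a match is a description of letters only.

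The libraries held 8578575 to 12854367 reads in genes, 27.0% to 29.1% of all entries of their tables. Stromal markers fixed for the check were all present, with no marker of the 11 at 0, and the 11 together had 8653 to 10145 CPM (normalised read counts) in the libraries labelled Erbb3f/f and 6936 to 9077 CPM in those labelled Erbb3d/d. CPM is a gene's read count over its library's total in genes on the usual counts-per-million scale, with libraries scaled by edgeR's TMM method. Erbb3, the targeted gene, was not lower under the deletion label, with means of 9.64 ± 2.24 and 13.9 ± 4.56 CPM (SD) over the 4 Erbb3f/f and the 4 Erbb3d/d libraries. A count over the whole gene cannot separate reads of a deleted exon, so the labels alone set every direction reported.

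The comparison asked whether the immediate early genes differ between the genotype labels. The mean of each of the 10 was higher in the libraries labelled Erbb3d/d, by 1.15-fold (Ier2) to 1.68-fold (Ier3), but none passed the threshold of 0.05 after adjustment (edgeR, quasi-likelihood). Among all genes, 0 of 14598 passed (0.00%), so the members do not stand apart from the background in this. At an unadjusted p under 0.05 there were 2 members, Ier3 and Fosl2, both higher, where 6.64% of all genes were higher and 4.97% lower at that level. All 10 fitted log2 fold changes were above 0, with a median of 0.37, and 48.0% of all genes tested were above 0, with a median of -0.01. No member's libraries separated by label without overlap, as 2.56% of all genes did with Erbb3d/d higher and 2.48% with Erbb3d/d lower.

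**Figure D1:**
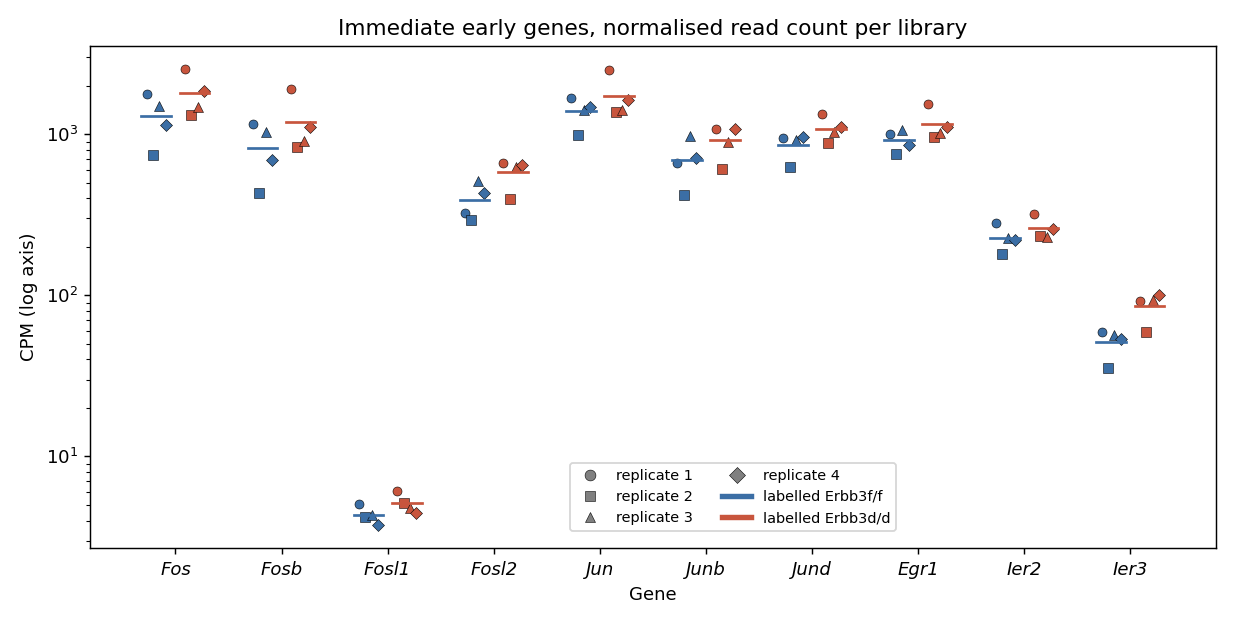
Normalised read count (CPM, log axis) of each of the 10 genes in each library. Blue symbols are the 4 libraries labelled Erbb3f/f, red symbols the 4 labelled Erbb3d/d, the shape gives the replicate number and the short lines are the means. The means of Erbb3d/d lie above those of Erbb3f/f for all 10 genes, while the symbols of the 2 labels overlap in every gene.

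Fos, the prototype of the FOS subunits, lies on chromosome 12 at 85473890 to 85477273 (GRCm38, GENCODE vM21) and has 4 exons. Its level was 1765, 747, 1502 and 1142 CPM in Erbb3f/f replicates 1 to 4 and 2549, 1309, 1485 and 1859 CPM in Erbb3d/d replicates 1 to 4. Erbb3f/f replicate 2 was the lowest library and Erbb3d/d replicate 1 the highest, and the other 6 libraries of the 2 labels were interleaved. Means of 1289 ± 442 and 1800 ± 549 CPM (SD, 4 libraries per label) gave a log2 fold change of 0.48 (SE 0.28; edgeR adjusted p = 0.536).

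Fosb encodes a FOS subunit whose short splice form lacks the C-terminal activation domain; the gene is on chromosome 7 from 19302696 to 19310051. It had 1154, 432, 1025 and 694 CPM in Erbb3f/f replicates 1 to 4 and 1921, 832, 911 and 1106 CPM in Erbb3d/d replicates 1 to 4. The order of the libraries was nearly that of Fos, with the same highest and lowest library, and Erbb3f/f replicates 1 and 3 were above Erbb3d/d replicates 2 and 3. For Fosb the label means were 826 ± 327 and 1193 ± 499 CPM (SD), the fitted log2 fold change 0.53 (SE 0.35) and edgeR's adjusted p 0.586.

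Fosl2, which encodes FRA2, a longer-lived FOS subunit, lies on chromosome 5 at 32135801 to 32157842. Its values were 326, 295, 511 and 430.1 CPM in Erbb3f/f replicates 1 to 4 and 660.1, 398, 629 and 645 CPM in Erbb3d/d replicates 1 to 4. In contrast to Fos, 3 of the 4 Erbb3d/d libraries lay together above every Erbb3f/f library, and Erbb3d/d replicate 2 fell among the Erbb3f/f libraries. Averaged by label, Fosl2 had 390.5 ± 99.2 against 583 ± 124 CPM (SD), and edgeR fitted a log2 fold change of 0.58 (SE 0.21; adjusted p = 0.337).

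Fosl1, which encodes FRA1, lies on chromosome 19 at 5447547 to 5455946 and was scarcely expressed. Reads numbered 52, 40, 55 and 33 in the Erbb3f/f libraries (replicates 1 to 4) against 62, 44, 61 and 51 in the Erbb3d/d libraries, which is 3.73 to 6.09 CPM. Counting alone gives an SD of 0.20 on the log2 scale at this depth, and the libraries of a label spread by 0.17, so no difference between libraries was detectable. Its means were 4.33 ± 0.553 and 5.13 ± 0.698 CPM (SD), with a log2 fold change of 0.24 (SE 0.24; edgeR adjusted p = 0.735). In GENCODE vM21, 62.4% of the Fosl1 transcript lies over an exon of Ccdc85b on the other strand, and the libraries were non-directional, so reads of the 2 genes cannot be told apart there. Over the 8 libraries the correlation of Fosl1 with Ccdc85b was 0.92.

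Jun encodes the main partner of FOS proteins and, like Junb and Jund, is a gene of a single coding exon. It lies on chromosome 4 at 95049034 to 95052222. Its level was 1675, 986, 1419 and 1470.3 CPM in Erbb3f/f replicates 1 to 4 and 2493, 1369, 1416 and 1628 CPM in Erbb3d/d replicates 1 to 4. Apart from a low Erbb3f/f replicate 2 and a high Erbb3d/d replicate 1, the other 6 libraries fell within 1369 to 1675 CPM with no order by label. Means of 1387 ± 289.7 and 1727 ± 523 CPM (SD, 4 libraries per label) gave a log2 fold change of 0.32 (SE 0.22; edgeR adjusted p = 0.599).

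Junb, a JUN subunit known to restrain growth in many cells, lies on chromosome 8 at 84974484 to 84978718. It had 667, 421, 971 and 712 CPM in Erbb3f/f replicates 1 to 4 and 1084, 612, 899 and 1084 CPM in Erbb3d/d replicates 1 to 4. Erbb3f/f replicate 3 was above Erbb3d/d replicates 2 and 3, and replicate 2 was the lowest of each label. For Junb the label means were 693 ± 225 and 919.7 ± 223 CPM (SD), the fitted log2 fold change 0.41 (SE 0.26) and edgeR's adjusted p 0.560.

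Jund, the JUN subunit known for steady expression in resting cells, lies on chromosome 8 at 70698949 to 70700616. Its level was 944, 626, 924 and 957 CPM in Erbb3f/f replicates 1 to 4 and 1326, 877, 1026 and 1107 CPM in Erbb3d/d replicates 1 to 4. Erbb3d/d replicates 1, 3 and 4 were above every Erbb3f/f library, by little in replicate 3. Averaged by label, Jund had 863 ± 158 against 1084 ± 187 CPM (SD), and edgeR fitted a log2 fold change of 0.33 (SE 0.17; adjusted p = 0.474). In GENCODE vM21, 52.6% of the Jund transcript lies over Gm11175 on the other strand and 7.28% of the Jun transcript over Junos. Some of their reads could belong to those genes, or reads in the overlaps could have been left out of the counts as ambiguous. An exon of Junb also overlaps Prdx2 on the other strand, though outside the longest coding transcript of Junb.

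Egr1, the zinc finger factor, lies on chromosome 18 at 34859823 to 34864984. It had 1002, 756, 1066 and 852 CPM in Erbb3f/f replicates 1 to 4 and 1538, 956, 1014 and 1115 CPM in Erbb3d/d replicates 1 to 4. The single high library was again Erbb3d/d replicate 1, and Erbb3f/f replicates 1 and 3 lay among the other Erbb3d/d libraries. Means of 919 ± 141 and 1156 ± 263 CPM (SD, 4 libraries per label) gave a log2 fold change of 0.33 (SE 0.17; edgeR adjusted p = 0.479).

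Ier2, a nuclear protein gene induced by growth factors, lies on chromosome 8 at 84661331 to 84662852. Its values were 280.1, 182, 225 and 219.8 CPM in Erbb3f/f replicates 1 to 4 and 322, 235, 231 and 259.6 CPM in Erbb3d/d replicates 1 to 4. Erbb3f/f replicate 1 exceeded 3 of the 4 Erbb3d/d libraries. Between means of 227 ± 40.5 and 262 ± 42.0 CPM (SD), the log2 fold change of 0.21 (SE 0.15; edgeR adjusted p = 0.606) was the smallest of the 10 genes.

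Ier3, also called IEX-1, encodes a stress-inducible regulator of cell survival; its locus is chromosome 17, 35821684 to 35822923. It had 59.2, 35.2, 57.0 and 53.4 CPM in Erbb3f/f replicates 1 to 4 and 91.6, 59.1, 93.6 and 101 CPM in Erbb3d/d replicates 1 to 4. The labels all but separated, since the overlap came from Erbb3d/d replicate 2 and Erbb3f/f replicate 1, whose values were nearly equal. Ier3 averaged 51.2 ± 10.9 and 86.2 ± 18.5 CPM (SD), and its log2 fold change of 0.75 (SE 0.20; edgeR adjusted p = 0.274) was the largest of the 10. Its adjusted p was 0.0256 with DESeq2, which called 1.80% of the genes it tested, 1.39% as higher. Without Erbb3d/d replicate 2 it was 0.0308 in edgeR's test (log2 fold change 0.90), a fit that called 1.75% of genes, 0.968% as higher. Among the fits that left out 1 library the adjusted p ran from 0.0308 to 0.648.

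The spread between libraries of the same label was wide for most of these genes. The SD of log2(CPM + 0.5) around the label means was 0.59 for Fosb, 0.49 for Fos, 0.45 for Junb, 0.36 for Jun and Fosl2 and 0.34 for Ier3, against a median of 0.19 over the 11041 genes of at least 10 CPM. Jund and Egr1, at 0.27, and Ier2, at 0.24, varied less. Of those 11041 genes 96.5% had a smaller SD than Fosb, 93.5% a smaller one than Fos and 66.2% a smaller one than Ier2. Counting error was small beside this, at an SD of 0.01 for Fos and 0.05 for Ier3 on the same scale. Within the libraries labelled Erbb3f/f, Fos ranged 2.36-fold and Fosb 2.67-fold, more than the 1.40-fold and 1.44-fold ratios between the label means. In 9 of the 10 genes the range within Erbb3f/f was wider than the ratio of the means, the exception being Ier3 by a hair (1.683 against 1.685). Within Erbb3d/d the range was wider for all 10. The highest over the lowest library is by nature a wider measure than a ratio of means. How many of all genes show the same was not counted, so these counts say nothing particular about the members.

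**Figure D2:**
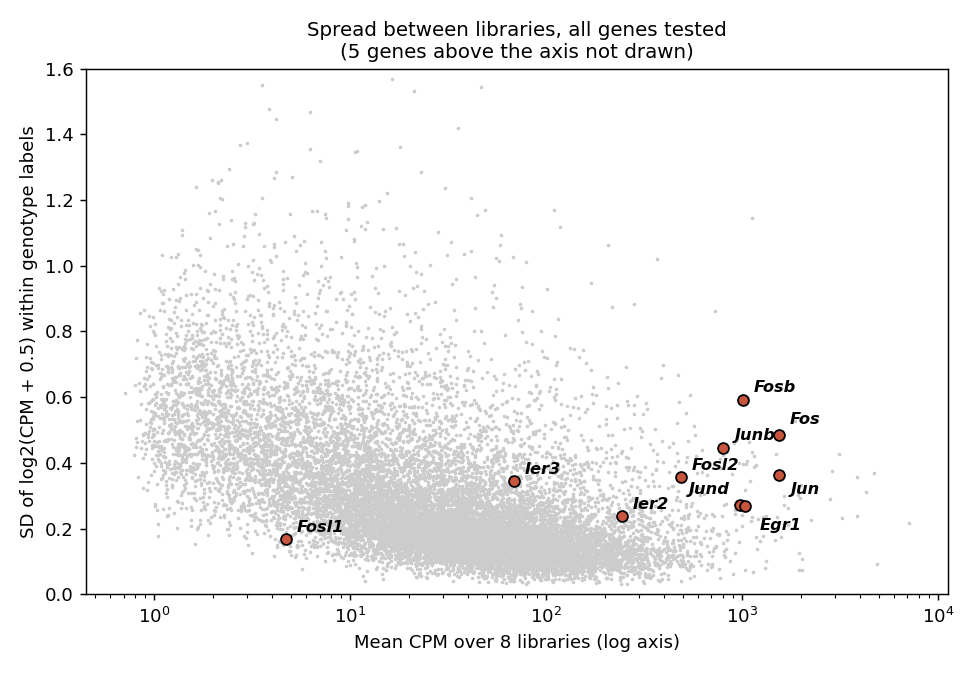
SD of log2(CPM + 0.5) within the genotype labels against mean CPM (log axis), with all genes tested in grey and the 10 immediate early genes in red. Fosb, Fos and Junb lie far above most genes of like level, while Fosl1, at under 10 CPM, has an SD of 0.17.

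Much of the variation was shared between the genes and lay in a few libraries. Erbb3f/f replicate 2 was the lowest of all 8 libraries for 9 of the 10 genes, all but Fosl1. Erbb3d/d replicate 1 was the highest for 8 of the 10, and Erbb3d/d replicate 4 for Junb and Ier3. The order also followed the replicate number within each label. Replicate 2 was the lowest of its label for 9 genes in Erbb3f/f and 8 in Erbb3d/d. Replicate 1 was the highest of its label for 6 genes in Erbb3f/f and 8 in Erbb3d/d. The labels name nothing that same-numbered libraries share, and a common batch was not tested. Summed over the 10 genes, the level was 7876, 4484, 7705 and 6535 CPM in Erbb3f/f replicates 1 to 4 and 11991, 6652, 7709 and 8909 CPM in Erbb3d/d replicates 1 to 4. In the 45 pairs of genes Pearson's r of log2(CPM + 0.5) over the 8 libraries had a median of 0.83 and ran from 0.32 to 0.99. After subtracting the label means the median was 0.76. These are descriptions of 8 points that share libraries, scaling and labels. Correlations between pairs of other genes were not computed, so whether such values are particular to the 10 genes is not known.

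**Figure D3:**
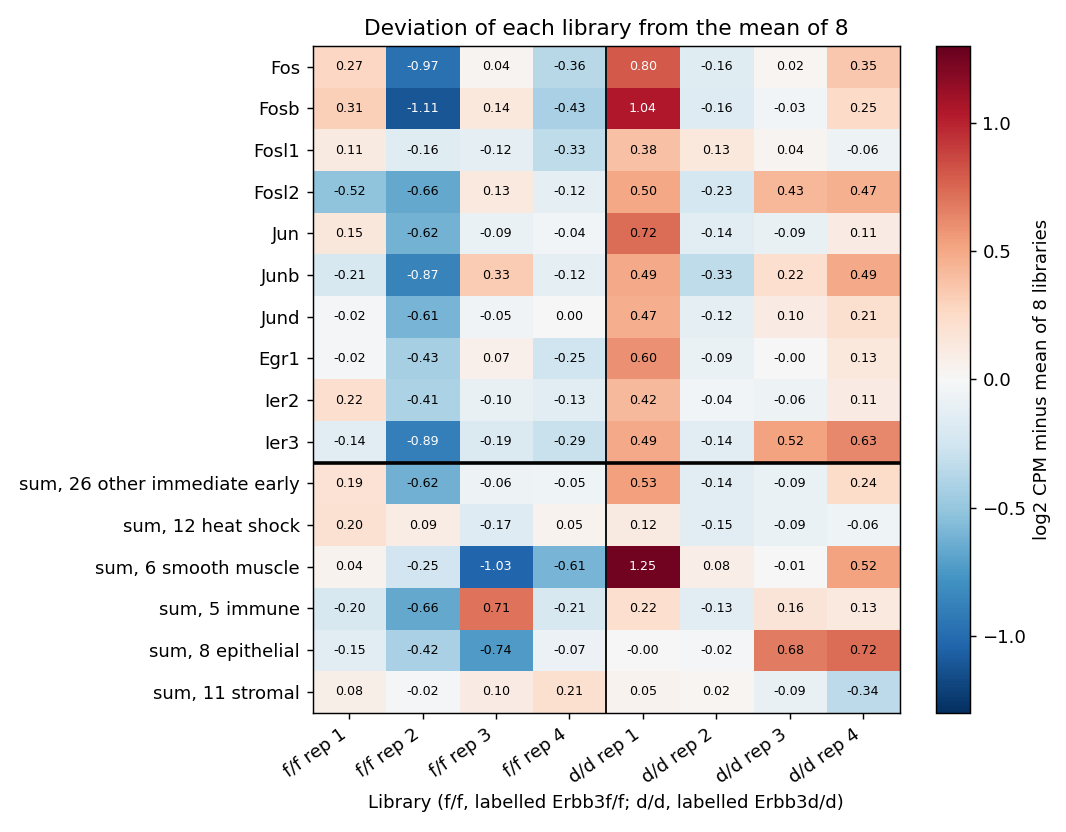
Difference of each library from the mean of the 8 libraries (log2 CPM) for the 10 genes, above the black line, and for the summed CPM of other gene lists, below it. Columns are libraries by label and replicate. Erbb3f/f replicate 2 is blue and Erbb3d/d replicate 1 red across the immediate early genes, while the row of summed heat shock genes, which is carried by its most abundant members, stays within 0.20 of 0.

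Within this shared pattern 2 arrangements could be seen. Fos and Fosb were nearly proportional (r = 0.99), and the ratio of Fosb to Fos CPM stayed between 0.578 and 0.754 over the libraries. Jun, Egr1 and Ier2 followed them, with r to Fos of 0.94, 0.94 and 0.96. Fosl2, by contrast, was closer to Junb (r = 0.92) and Ier3 (r = 0.89) than to Fos (r = 0.69), Jun (0.61) or Ier2 (0.51). Jund was close to both sides, with r of 0.93 with Fos, 0.90 with Junb and 0.89 with Ier3. The ratio of Fosl2 to Fos CPM ran from 0.184 in Erbb3f/f replicate 1 to 0.424 in Erbb3d/d replicate 3. Fosl2 and Ier3 were high in Erbb3d/d replicates 3 and 4 as well as in replicate 1, where Fos, Fosb, Jun, Egr1 and Ier2 were high chiefly in replicate 1. No test was made of this difference.

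**Figure D4:**
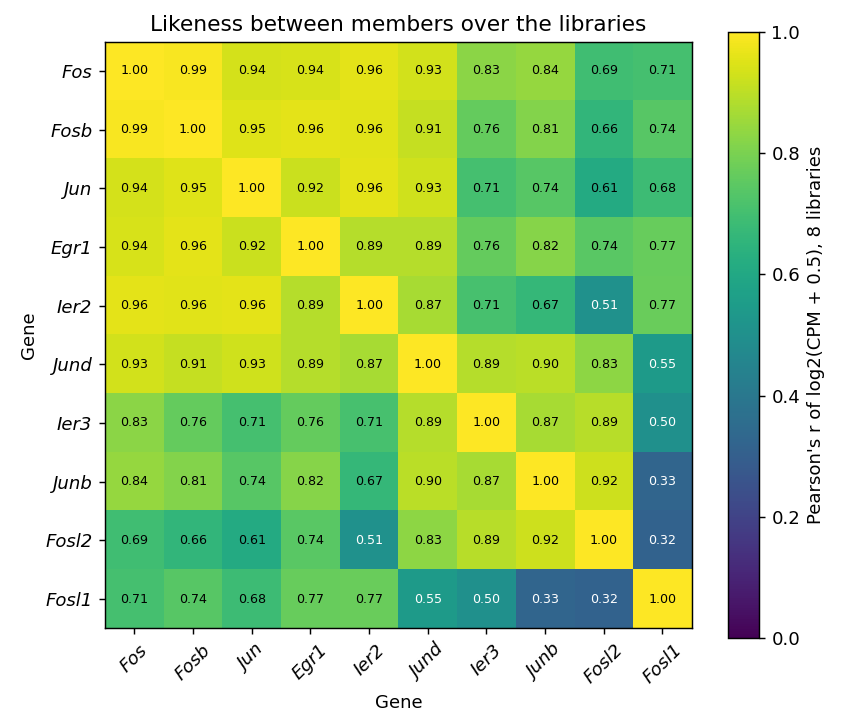
Pearson's r of log2(CPM + 0.5) over the 8 libraries for each pair of the 10 genes, both axes in the same order of genes. The yellow block holds Fos, Fosb, Jun, Egr1, Ier2 and Jund, with r of 0.87 to 0.99. Junb, Fosl2 and Ier3 are close to one another at 0.87 to 0.92, and Fosl1, with few reads, has the lowest values. Jund is also close to Junb (0.90) and Ier3 (0.89).

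Per length, using CPM per kilobase of the longest coding transcript in GENCODE vM21, Fos had the highest level at 733 ± 255 (SD over the 8 libraries of both labels). Jund followed at 584 ± 120, Jun at 488 ± 135, Junb at 446 ± 133, Fosb at 267 ± 115 and Egr1 at 231 ± 52.0. Ier2 had 160.5 ± 28.0, Fosl2 74.5 ± 22.4, Ier3 60.7 ± 20.7 and Fosl1 2.54 ± 0.388 CPM per kilobase. Neighbours in this order were not always apart. Fos was above Jund in 6 of 8 libraries, Jun above Junb in 5, Fosb above Egr1 in 6 and Fosl2 above Ier3 in 7, while the other neighbours kept their order in all 8. The authors' gene models are not given in the sources used here, so the lengths are those of the named annotation. The overlaps of Jund, Jun and Fosl1 with other genes were not corrected for.

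The differences between the labels were smaller without either of the libraries at the ends of the range. These libraries were picked from the same values, so a fall follows from the choice. The median log2 fold change of the 10 genes, 0.37 with all libraries, was 0.21 without Erbb3d/d replicate 1 and 0.25 without Erbb3f/f replicate 2. Without any other single library it was 0.35 to 0.49. Leaving out Erbb3d/d replicate 1, the log2 fold change was 0.27 for Fos, 0.20 for Fosb, 0.08 for Jun, 0.16 for Egr1 and 0.09 for Ier2. That of Fosl2 was 0.51, that of Junb 0.32 and that of Ier3 0.72. Leaving out Erbb3f/f replicate 2 instead, it was 0.30 for Fos, 0.33 for Fosb, 0.19 for Jun, 0.26 for Egr1 and 0.12 for Ier2, and for Fosl2 (0.48), Junb (0.24), Jund (0.21) and Ier3 (0.62) it was lower than without Erbb3d/d replicate 1. The fold changes of all 10 genes stayed above 0 in each of the 8 fits that left out 1 library.

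Smooth muscle markers were also higher, on average, in the libraries labelled Erbb3d/d. All 6 markers of the list were detected, and their summed level was 719.6 to 1510.2 CPM in Erbb3f/f and 1456 to 3487 CPM in Erbb3d/d, with the highest value in Erbb3d/d replicate 1. At an unadjusted p under 0.05 all 6 were higher, as were 6.64% of all genes, and none passed after adjustment (smallest adjusted p = 0.281, edgeR). DESeq2, which called 1.80% of all genes it tested, called 1 of the 6, Cnn1, which encodes calponin. The correlation of the 10 genes with that sum over the libraries was 0.34 (Junb) to 0.78 (Fosl1). With the mean of these markers as a covariate, the log2 fold change turned to -0.05 (SE 0.49) for Fosb, -0.14 (SE 0.28) for Jun and -0.10 (SE 0.18) for Ier2, and was 0.03 (SE 0.39) for Fos and 0.07 (SE 0.24) for Egr1. It was 0.71 (SE 0.33) for Fosl2, 0.45 (SE 0.42) for Junb and 0.67 (SE 0.30) for Ier3. For Jund it was 0.14 (SE 0.24) and for Fosl1 0.02 (SE 0.35). In that fit 7 of the 10 genes were above 0, as were 50.0% of all genes. The markers were themselves higher in Erbb3d/d, so this fit cannot fully separate their level from the label. In bulk RNA, more cells of a type and more RNA per cell cannot be told apart. The part of smooth muscle cells in these differences was not tested.

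**Figure D5:**
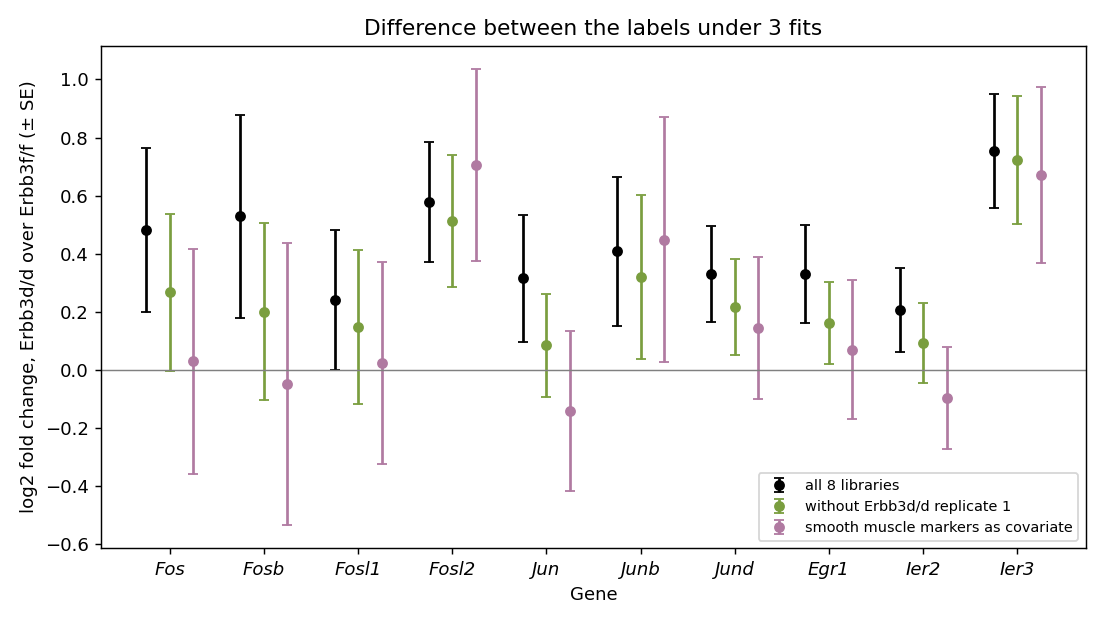
Log2 fold change of each gene, Erbb3d/d over Erbb3f/f, with its standard error, from edgeR's fit of all 8 libraries (black), without Erbb3d/d replicate 1 (green) and with the mean of 6 smooth muscle markers as a covariate (purple). Under the covariate Fos, Fosb, Fosl1, Jun, Egr1 and Ier2 lie between -0.14 and 0.07, Jund at 0.14 and Junb at 0.45. Fosl2 and Ier3 stay at 0.51 to 0.75 in the 3 fits.

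Other cell types were read the same way. Epithelial markers (all 8 detected) had a summed level of 595 to 946 CPM in Erbb3f/f and 983 to 1643 CPM in Erbb3d/d, highest in Erbb3d/d replicates 3 and 4, and 7 of 8 were higher at an unadjusted p under 0.05. At that level 6.64% of all genes were higher. None of the 8 markers passed after adjustment by edgeR. DESeq2, which called 1.80% of all genes it tested, called 4 of them, Epcam, Krt19, Cldn4 and Cldn7. Their correlation with the members was highest for Ier3 (0.76) and Fosl2 (0.57). With their mean as a covariate the fold changes of all 10 genes stayed above 0 (49.9% of all genes were), at 0.25 (Ier2) to 0.87 (Fosb), and that of Ier3 was 0.59 (SE 0.31). Immune markers (5 detected) had 875 to 2266 CPM in Erbb3f/f and 1265 to 1611 CPM in Erbb3d/d, with a correlation of 0.85 with Junb and 0.73 with Fosl2. Most of that sum came from Lyz2 alone (630 to 1780 CPM in Erbb3f/f and 957 to 1244 CPM in Erbb3d/d). Of the 5 immune markers 3 had a fold change above 0 and 2 below 0. Endothelial markers (6 detected) had 207 to 417 CPM in Erbb3f/f and 202 to 436 CPM in Erbb3d/d. The correlation of the endothelial sum with the members ran from -0.74 (Fosl2) and -0.72 (Junb) to 0.28 (Fosl1). That of the stromal sum ran from -0.53 (Ier3) to 0.02 (Jun). Of the 11 stromal markers 8 were lower in Erbb3d/d, and 5 of them had an unadjusted p under 0.05. At that level 4.97% of all genes were lower. After adjustment edgeR called 0 of the 11 and DESeq2 2, Vim and Pdgfra. Without Erbb3d/d replicate 2 edgeR called 3, Pdgfra, Hoxa10 and Hoxa11, in a fit that called 1.75% of all genes. Most epithelial markers were themselves higher in Erbb3d/d, so the covariate fit cannot fully separate their level from the label. The part of epithelial, immune, endothelial and stromal cells in the levels of the 10 genes was not tested.

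Among 26 other immediate early genes, 25 were expressed enough to test. Of these 23 had a fold change above 0 and 2 below 0, with a median log2 fold change of 0.46, and 0 passed after adjustment by edgeR or DESeq2. At an unadjusted p under 0.05 there were 5, all higher, where 6.64% of all genes were higher. The 3 with the smallest p, none past the adjusted threshold, were Klf6 (log2 fold change 0.50), Klf10 (0.44) and Maff (0.78), which encode a pair of Krüppel-like factors and a small MAF protein. With the smooth muscle covariate 19 of the 25 were above 0 and the median was 0.19. The summed level of the list followed the members closely, with a correlation of 0.61 to 0.97 and a median of 0.92.

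The genes whose pattern was most like that of Fos over the 8 libraries, among genes of at least 10 CPM, were Nr4a1 (r = 0.99), Btg2 (0.98), Nfil3 (0.98), Gab2 (0.98) and Psenen (0.97). Nr4a1 encodes an orphan nuclear receptor, Btg2 an antiproliferative factor, Nfil3 a leucine zipper repressor, Gab2 a docking protein of receptor tyrosine kinases and Psenen a gamma-secretase subunit. Nr4a1, itself an immediate early gene, had 133 CPM in Erbb3f/f replicate 2 and 588 CPM in Erbb3d/d replicate 1, its lowest and highest libraries. The genes most like Egr1 were Sgce (0.99), Slc35e4 (0.98), Fcgrt (0.97), Ptbp2 (0.97) and Gab2 (0.97). Gab2 alone stood in both lists of 5.

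The regulators and partners of the pathway were split in direction. Of 21 genes, among them Srf, Elk1 and the EGR corepressors Nab1 and Nab2, 8 had a fold change above 0 and 13 below 0, with a median of -0.04. By edgeR and by DESeq2 0 passed after adjustment. At an unadjusted p under 0.05 there was 1, Nab1, with a log2 fold change of -0.21, where 4.97% of all genes were lower. The next by p were Rps6ka3, a ribosomal protein kinase gene (0.61), and Elk3, a partner of serum response factor (0.21). Srf itself had a log2 fold change of 0.00. The summed level of the list was nearly flat, at 1756 to 1937 CPM in Erbb3f/f and 1802 to 1821 CPM in Erbb3d/d. Over that narrow range it was negatively correlated with every member, from -0.77 to -0.29.

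Genes known as AP-1 or EGR targets gave a mixed result. Of the 15 listed, 12 were tested, 10 with a fold change above 0 and 2 below 0, with a median of 0.41, and 0 passed after adjustment by edgeR. At an unadjusted p under 0.05 there were 3, 2 higher and 1 lower, where 6.64% of all genes were higher and 4.97% lower. With the smooth muscle covariate 7 of the 12 were above 0 and the median was 0.16, and with the epithelial covariate 7 were and it was 0.06. Plau, which encodes the urokinase plasminogen activator, had 21.3, 14.9, 19.5 and 21.4 CPM in Erbb3f/f replicates 1 to 4 and 59.6, 31.3, 38.8 and 69.1 CPM in Erbb3d/d replicates 1 to 4, with no overlap. Plau had a log2 fold change of 1.37 and missed the threshold (edgeR adjusted p = 0.133). Cd44, the hyaluronan receptor gene, went the other way without overlap, with a log2 fold change of -0.54, and Ccnd1, the cyclin D1 gene, had 0.78 without passing. DESeq2 called 2 genes of the list, Plau and Cd44, and so did edgeR's test without Erbb3d/d replicate 2. These fits called 1.80% and 1.75% of all genes they tested.

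Heat shock genes, which like immediate early genes are known to respond to handling of tissue, were mostly below 0 in fold change. Of the 12 listed, 4 had a fold change above 0 and 8 below 0, with a median log2 fold change of -0.15, and 0 passed after adjustment by edgeR or DESeq2. At an unadjusted p under 0.05 there were 2, both lower, Hspd1 (-0.33) and Bag3 (-0.20), and Hspe1 was the next by p (-0.41). Of all genes, 4.97% were lower at that level. The summed level was 4745 to 6118 CPM in Erbb3f/f and 4814 to 5789 CPM in Erbb3d/d, and its correlation with the 10 genes ran from -0.38 to 0.30. Most of the sum came from the abundant Hsp90ab1 and Hspa8. The stress-inducible Hspa1a had 418, 145, 301 and 396 CPM in Erbb3f/f replicates 1 to 4 and 531, 144, 228 and 101 CPM in Erbb3d/d replicates 1 to 4. It was highest in Erbb3d/d replicate 1 and low in Erbb3f/f replicate 2, as the immediate early genes were, but lowest in Erbb3d/d replicate 4, where they were high. Its near-identical copy Hspa1b, whose reads may be shared with it, had the same highest and lowest library (648 and 190.4 CPM), and Hspb1 was lowest in Erbb3f/f replicate 2 (47.3 CPM). Hspb1 was highest in Erbb3f/f replicate 1 (124 CPM). Hspa1a, Hspa1b and Hspb1 were singled out after their values were seen, and others of the list went the other way. Hspa8 (1434 CPM), Hsph1 (229), Dnajb1 (107), Hspd1 (402) and Bag3 (167) were highest in Erbb3f/f replicate 2, where 9 of the 10 members were lowest. How the cells were isolated is not given in the labels, and its part in the levels of the immediate early genes was not tested.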

How the data were processed

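RNA of uterine stromal cells was extracted with TRIzol, enriched for polyadenylated RNA and sequenced from non-directional libraries as pairs of 150 bp, per the labels' protocols. The authors deposited a table of raw read counts per gene symbol for each library, with no normalization; the submitters' processing notes name HISAT2, SAMtools, HTSeq and StringTie and the builds mm10 and GRCm38, and the annotation is not given in the sources used here. The 5 closing lines that name no gene, 70.9% to 73.0% of the entries, were left out. Groups and replicate numbers came from the sample titles. Genes were kept by filterByExpr (14598), scaled by TMM and tested with edgeR 4.0.16 in R 4.3.3 (glmQLFit, robust, and glmQLFTest, Benjamini-Hochberg adjustment over all genes tested). Alternatives were DESeq2 1.42.0, other scalings, no filter, each library left out, the replicate number as a block, and epithelial or smooth muscle markers as a covariate. Depth was 8578575 to 12854367 reads in genes. Positions came from GENCODE vM21 and sequences from RefSeq.

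Genes named are the 10 members; from each other list those past the adjusted threshold or, with none, up to 3 of the smallest p; and the 5 most like Fos and Egr1. The members and lists were chosen with earlier results of these data known. The markers were 11 stromal, 8 epithelial, 6 smooth muscle, 6 endothelial and 6 immune genes, of the last of which 5 were matched.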

Additional observations from a re-analysis of the deposited data

Results flagged for a closer look

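Of 20 groups of 4 libraries examined, 1 for each gene and label, 2 held a library far from the other 3, where 1 would be expected by chance at 1 in 20. Fosl2 had 398 CPM in Erbb3d/d replicate 2, with the nearest of its label at 629 CPM. Jund had 626 CPM in Erbb3f/f replicate 2, with the nearest of its label at 924 CPM.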

How the results depend on the processing

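The 10 fold changes were recomputed under 16 alternatives, and 157 of the 160 values kept their direction. The 3 that reversed were Fosb (-0.049), Jun (-0.14) and Ier2 (-0.096) with the smooth muscle covariate. With all 8 libraries edgeR called 0 of the 10 genes, 0 genes over the whole table and 0 of the genes on the 4 pathway lists. DESeq2 called 1, 262 and 2, and leaving out 1 library gave 0 to 1, 0 to 259 and 0 to 2, the upper values without Erbb3d/d replicate 2. The cause was not tested. The replicate number as a block called 1 of the 10 genes (Ier3, adjusted p = 0.0355 in edgeR's test), 52 genes over the table and 1 list gene (Plau), and 3 smooth muscle markers (Acta2, Cnn1 and Actg2). With the block the SE of the log2 fold change was 0.152 for Fos, against 0.282 without it. For Ier3 it was 0.093 against 0.196, and for Fosl1 0.245 against 0.241. The same-numbered libraries had correlations of their deviations from the label means of 0.241, 0.172, 0.0998 and 0.152 for numbers 1 to 4, 3 of the 4 above 0.1, and 5 of 8 libraries correlated best with their own number, a hint of pairing from the data that fell short of the bar set (all 4 above 0.1), and the labels name nothing that same-numbered libraries share. The median SD of the 10 genes (0.350) ran from 0.276 to 0.377 and the median correlation of their pairs (0.826) from 0.754 to 0.882 when 1 library was left out. Depth limits Fosl1, with 33 to 62 reads a library.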

Other observations

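Outside the rule for named genes, and chosen after their values were seen, the genes of at least 10 CPM most like the other members differed between the 2 arrangements. Ggt5, which encodes a gamma-glutamyltransferase, was most like Fosl2 (r = 0.997 over 8 libraries) and ranged from 33.1 to 107 CPM. Cebpb, a leucine zipper factor needed for decidualization, was most like Junb (0.99), and Grn, the progranulin gene, followed (0.99). Gdf15, a stress-induced cytokine gene, and Cdkn1a, which encodes the cell cycle inhibitor p21, were among the 5 most like Ier3 (0.98 and 0.97). Ccl2, a chemokine gene, was most like Ier2 (0.97), and Ppp1r15a most like Jun (0.97). With so many genes compared over 8 libraries these values are descriptions.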
